A study of Rattus norvegicus with 12 samples.

Results

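The genes described here are 9 genes for the scaffold of the postsynaptic density and for the calcium/calmodulin-dependent kinase II (CaMKII), chosen by name from the 17494 genes of the count table: Dlg4, Dlg2, Dlgap1, Shank1, Shank2, Shank3, Homer1, Camk2a and Camk2b. They were measured in the hippocampus of 12 blast-exposed male Long Evans hooded rats labelled wild type, 1 RNA library per rat. All rats received 3 blasts, 1 per day, at 10 weeks of age. The 6 blast-boldine rats (rats 12, 17, 19, 20, 32 and 35) ate chow with boldine, a plant alkaloid, from week 2 after blast, at an intended 25 mg per kg per day, and the 6 blast-control rats (rats 1, 4, 5, 6, 7 and 9) ate the same chow without it. All were killed 29 weeks after blast. Every rat in the comparison carried the blast injury, and sham-exposed rats were not analysed here. The comparison asks whether these genes differed in RNA level between blast-exposed rats with and without boldine.

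The postsynaptic density is the protein layer under the membrane of excitatory synapses that holds glutamate receptors opposite the release sites. PSD-95 (from Dlg4) and its relative PSD-93 (from Dlg2) bind receptors at the membrane, GKAP (from Dlgap1) links them to the Shank proteins deeper in the layer, and Homer proteins tie Shank to metabotropic glutamate receptors. CaMKII, a multi-subunit kinase that calcium entry through NMDA receptors activates, is highly abundant at these synapses, is needed for long-term potentiation in the hippocampus, and is built mainly from its alpha and beta subunits.

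The 11 deeper libraries held 10148474 to 40850106 counts each, and the library of blast-control rat 6 only 74008. Levels are given as CPM, which divide counts by the TMM-normalized library size. In rat 6, 1 count equals 15.8 CPM, so its values carry wide counting error: its 13 counts of Dlg2 gave 206 CPM with an exact Poisson 95% interval from 109.7 to 352 CPM, and its 81 counts of Dlg4 gave 1283 CPM with an interval from 1019 to 1595 CPM. The treatment comparison of each gene is therefore also given without rat 6. The libraries also fell into 2 sets of 6. Library suffixes from S1 to S6 each occur on 2 libraries. The libraries were divided into 2 sets, here called sheets, with each suffix once in each. It was also assumed that rat numbers rise with the suffix within each treatment of a sheet, which left 4 possible divisions. In the division that accounted for most of the first principal component of 11516 genes without rat 6 (94.8% of it, against 1.58% for treatment), sheet 1 held rats 1, 7, 9, 20, 32 and 35 and sheet 2 held rats 4, 5, 6, 12, 17 and 19, with 3 rats of each treatment in each. The sheet is inferred, not labelled, and the labels do not say what the libraries of a sheet have in common. The division was chosen on these data, so differences between sheets are given as descriptions with no p-value. Markers of neurons (8 of 8 genes), interneurons (6 of 6) and hippocampal subfields (7 of 8) had counts in all 11 rats other than rat 6.

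All 9 genes passed the filter on low counts, and in the annotation of rat genome mRatBN7.2 none shares exon bases with another gene of the table on either strand. The counts of a gene are the reads on its exons, all isoforms together. In bulk tissue, fewer cells of a type and less RNA per cell cannot be told apart.

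The sequences of 250 bases upstream of the start, from RefSeq on GRCr8, are shown for Shank3, the gene with the smallest p within sheets, for Dlg4, the gene with the largest fold change over all 12 rats, and for Camk2b, the gene with the smallest difference between treatments over all 12 rats and between sheets. Of the 9 genes, 7 matched the promoter table. Capitals mark the Sp1 GC box GGGCGG or its reverse complement CCGCCC.
Shank3: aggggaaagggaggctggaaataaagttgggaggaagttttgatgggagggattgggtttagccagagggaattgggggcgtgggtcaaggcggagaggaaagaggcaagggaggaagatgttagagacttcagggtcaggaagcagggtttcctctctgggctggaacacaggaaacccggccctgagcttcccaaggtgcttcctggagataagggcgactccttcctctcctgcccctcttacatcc
Dlg4: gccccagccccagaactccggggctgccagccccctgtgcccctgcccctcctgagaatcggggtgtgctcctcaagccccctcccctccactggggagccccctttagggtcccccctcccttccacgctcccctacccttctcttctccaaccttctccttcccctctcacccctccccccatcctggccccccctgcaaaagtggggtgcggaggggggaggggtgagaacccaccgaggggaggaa
Camk2b: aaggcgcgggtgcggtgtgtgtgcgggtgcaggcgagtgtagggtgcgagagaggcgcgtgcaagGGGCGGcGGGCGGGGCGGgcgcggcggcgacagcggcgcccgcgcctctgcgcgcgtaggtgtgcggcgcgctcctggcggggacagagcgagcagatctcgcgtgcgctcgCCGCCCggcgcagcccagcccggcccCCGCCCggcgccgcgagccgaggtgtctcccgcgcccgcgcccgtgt
The stretches are chr7:122448073-122448322 (+ strand) for Shank3, chr10:55239534-55239783 (+ strand) for Dlg4 and chr14:85147945-85148194 (− strand) for Camk2b. The G and C share was 56.0% in Shank3, 69.2% in Dlg4 and 80.4% in Camk2b, against a median of 51.2% over 33469 promoters of the same length, and Camk2b held 47 CpG against a median of 5. The motifs searched on both strands were the GC box, which 30.5% of all promoters hold and which occurs 5 times in Camk2b, the CRE half-site TGACG (18.2%) and the E-box CACGTG (5.59%), and neither of the others occurs in these 3 stretches. Overlapping matches were counted. A match describes letters only.

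None of the 9 genes passed the test for a difference between treatments with all 12 rats (edgeR quasi-likelihood test, Benjamini-Hochberg adjusted p = 1.0 for each). At an adjusted p under 0.05, 0 of 12325 genes tested, which is 0 percent, were called with all 12 rats, and 0 of the 9 genes. At an unadjusted p under 0.05, 132 genes (1.07% of those tested by edgeR), 85 by DESeq2 and 115 by limma-voom were called, and again 0 of the 9 genes by any of these tools. Without rat 6 the count was 0 of the 9 genes against 175 genes (1.4%). Of the 9 genes, 7 had a negative and 2 a positive log2 fold change, with a median of -0.09 against 0.00 over all genes tested.

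**Figure D1:**
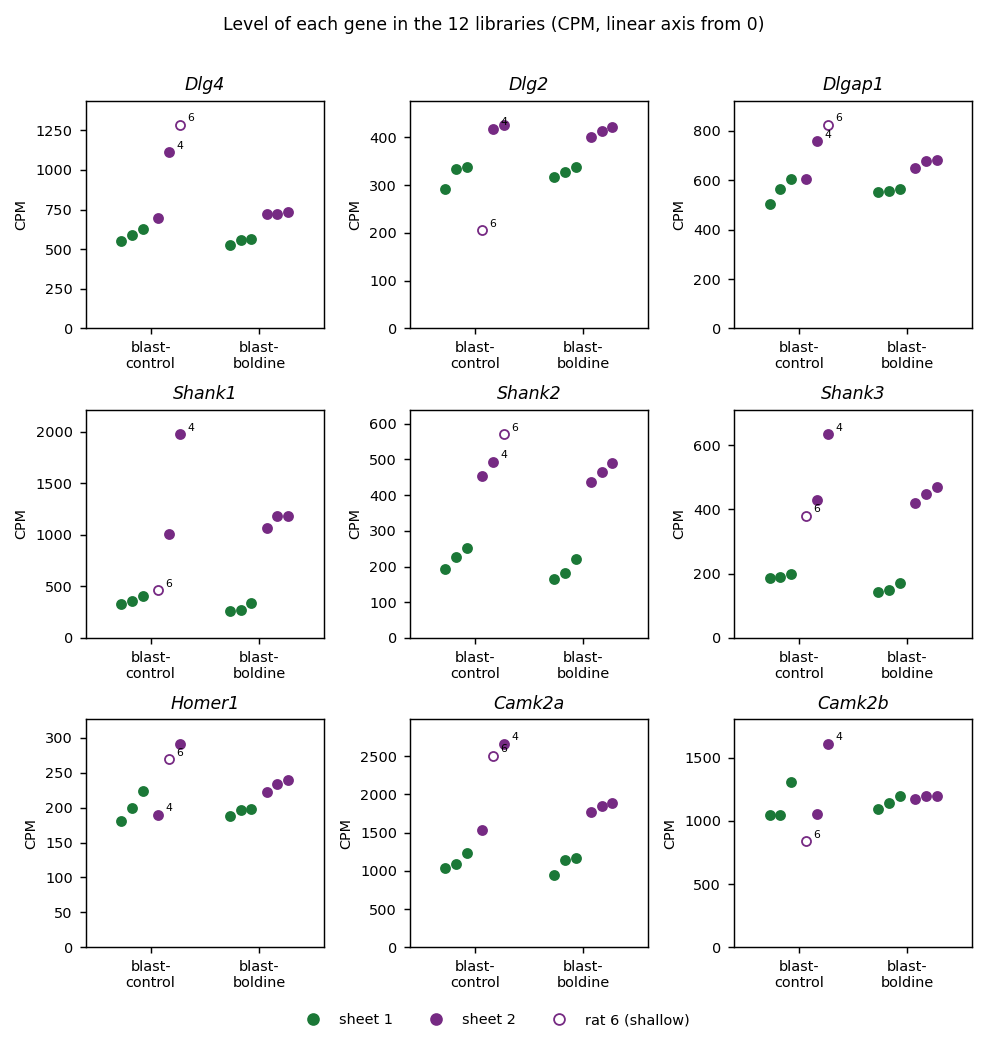
Level of each of the 9 genes in every library, in CPM on a linear axis from 0, by treatment, with sheet 1 in green, sheet 2 in purple, rat 6 as an open circle and rats 4 and 6 numbered. For Shank1, Shank2 and Shank3 the libraries of sheet 2 other than rat 6 sit above all of sheet 1 in both treatments, while Camk2b and Homer1 overlap between sheets.

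Dlg4 (chr10:54741101-54767155, + strand) had the largest negative fold change of the 9 genes with all 12 rats. Its level was 528, 642 and 734 CPM (lowest, median and highest) in blast-boldine rats and 550.1, 664 and 1283 CPM in blast-control rats. The 2 highest values were the blast-control rats 6 (1283 CPM) and 4 (1110.3 CPM), and the other 4 blast-control rats lay between 550.1 and 698 CPM, inside the span of the blast-boldine rats. The blast-boldine mean was 638 CPM ± 96.9 (SD, n = 6), against 809.9 CPM ± 309 (SD, n = 6) for the controls. The log2 fold change was -0.32 (standard error 0.22) by edgeR, with a 95% interval from -0.80 to 0.15 and an exact two-sided permutation p of 0.288. Without rat 6 it was -0.17, with an interval from -0.58 to 0.25 and an exact permutation p of 0.556. With the sheet in the model and rat 6 left out it was -0.20 (standard error 0.10), with an interval from -0.42 to 0.02. The edgeR unadjusted p was 0.0701 (adjusted p = 0.898), and the exact permutation p within sheets was 0.075. With each further rat left out in turn, that edgeR p was under 0.05 only without rat 5, at 0.0105. Without rat 4 the log2 fold change was -0.05.

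Dlg2 (chr1:145127175-146499468, + strand), whose groups overlapped, had 317, 369 and 422 CPM (lowest, median and highest) in blast-boldine rats and 206, 336 and 426 CPM in blast-control rats, where the lowest value was that of rat 6. The log2 fold change was 0.11, with an edgeR 95% interval from -0.25 to 0.47, and 0.03 without rat 6, with an interval from -0.26 to 0.32. Dlgap1 (chr9:110167448-110726817, + strand) had 554, 607 and 680.2 CPM in blast-boldine rats and 502, 605 and 824 CPM in blast-control rats, and the groups overlapped. Its log2 fold change was -0.06 with all rats, with an interval from -0.36 to 0.25, and 0.01 without rat 6.

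The Shank genes encode the large scaffolds that connect the receptor-bound layer to Homer and to actin. Shank3 (chr7:120570402-120629247, + strand), a gene whose loss causes Phelan-McDermid syndrome in people, spread more between sheets than between treatments. In sheet 1 its level was 143, 171 and 149 CPM in blast-boldine rats 20, 32 and 35 and 200.0, 189.9 and 187 CPM in blast-control rats 1, 7 and 9. In sheet 2 it was 421, 469 and 449 CPM in blast-boldine rats 12, 17 and 19 and 634, 428 and 380 CPM in blast-control rats 4, 5 and 6. In sheet 1 all 3 blast-boldine rats were thus under all 3 blast-control rats, a pattern that 498 of 12529 genes (3.97%) had and that Shank3 alone of the 9 genes showed, while in sheet 2 the treatments overlapped. Over all 12 rats the log2 fold change was -0.16 (standard error 0.41, edgeR), with an interval from -1.04 to 0.73 and an exact two-sided permutation p of 0.615. Without rat 6 it was -0.13, with an interval from -1.11 to 0.86.

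Once the sheet entered the model and rat 6 was left out, the log2 fold change of Shank3 was -0.29 (standard error 0.09), with a 95% interval from -0.50 to -0.09. The edgeR unadjusted p was 0.00821, and it did not pass adjustment over all genes (adjusted p = 0.898). An exact permutation test within sheets, run after the data had been seen, gave p = 0.025 over 200 assignments, where Shank3 was the only one of the 9 genes under 0.05. With all 12 rats the exact permutation test within sheets gave p = 0.13 over 400 assignments. With all 12 rats and the sheet as a covariate the log2 fold change was -0.26, with an edgeR unadjusted p of 0.0314. Each further rat was left out in turn from the fit with the sheet and without rat 6, also after the data had been seen. The edgeR unadjusted p of Shank3 then lay between 0.000236 and 0.0349. It was highest without rat 4, where the log2 fold change was -0.20 and 820 of 12600 genes had an unadjusted p under 0.05. It was lowest without rat 5, where the log2 fold change was -0.39 and the adjusted p 0.397. In that fit 1033 of 12591 genes had an unadjusted p under 0.05, and rat 4 was the only control of sheet 2. The interaction of treatment with sheet, without rat 6, was 0.09 on the log2 scale for Shank3 (edgeR unadjusted p = 0.662). Its 95% interval, from -0.34 to 0.52, reaches past 0.29, the size of the treatment difference, in both directions. It therefore cannot decide whether the treatment difference differed between sheets. The smallest unadjusted p of this interaction among the 9 genes was 0.251, for Shank2.

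Shank1 (chr1:94808282-94855824, + strand), found mostly in neurons, had the widest spread. In sheet 1 it had 256, 337 and 273 CPM in blast-boldine rats 20, 32 and 35 and 331, 402 and 360.2 CPM in blast-control rats 1, 7 and 9. In sheet 2 it had 1184, 1064 and 1180.4 CPM in blast-boldine rats 12, 17 and 19 and 1972, 1004 and 459 CPM in blast-control rats 4, 5 and 6. Rat 4 was the highest library and rat 6, with 29 counts, stood far under the rest of sheet 2. The log2 fold change with all 12 rats was -0.09 (standard error 0.55, edgeR), with an interval from -1.27 to 1.09, which reaches past 2-fold in both directions, and without rat 6 it was -0.18, with an interval from -1.49 to 1.13. With the sheet in the model and rat 6 left out it was -0.36 (standard error 0.14), with an unadjusted p of 0.0261 and an adjusted p of 0.898, and the exact permutation p within sheets was 0.1. That unadjusted p rose above 0.05 when any of rats 4, 7, 20 or 35 was also left out, to 0.172, 0.0624, 0.0617 and 0.0536, and without rat 4 the log2 fold change was -0.17.

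Shank2 (chr1:199169429-199589415, + strand) had 164, 329 and 489 CPM (lowest, median and highest) in blast-boldine rats and 194, 352 and 570.3 CPM in blast-control rats. Its log2 fold change was -0.12 with all rats, with an edgeR interval from -0.89 to 0.65, and 0.01 without rat 6. With the sheet in the model and rat 6 left out it was -0.15, with an interval from -0.36 to 0.06. Homer1 (chr2:24544000-24645547, + strand) makes long scaffold forms and the short activity-induced form Homer1a, which counts per gene do not separate. It had 188, 210.4 and 240.2 CPM (lowest, median and highest) in blast-boldine rats and 180.3, 212 and 292 CPM in blast-control rats. Its log2 fold change was -0.06, with an interval from -0.38 to 0.25, and -0.03 without rat 6.

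Camk2a (chr18:54378784-54438030, + strand), the alpha subunit of CaMKII, is found mainly in excitatory forebrain neurons. It had 940.5, 1465 and 1891 CPM (lowest, median and highest) in blast-boldine rats and 1037, 1382 and 2660.5 CPM in blast-control rats, the highest 2 being rats 4 and 6. The log2 fold change was -0.19 (standard error 0.28), with an edgeR 95% interval from -0.79 to 0.41, and -0.05 without rat 6, with an interval from -0.66 to 0.56. Camk2b (chr14:80845231-80933994, − strand), the beta subunit that binds actin, had the smallest fold change with all 12 rats, but not without rat 6. It had 1094, 1182 and 1200.1 CPM in blast-boldine rats and 839.6, 1049 and 1609.5 CPM in blast-control rats, so all blast-boldine values lay inside the control range. The log2 fold change was 0.01 (standard error 0.15), with an interval from -0.31 to 0.34, and -0.06 without rat 6.

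**Figure D2:**
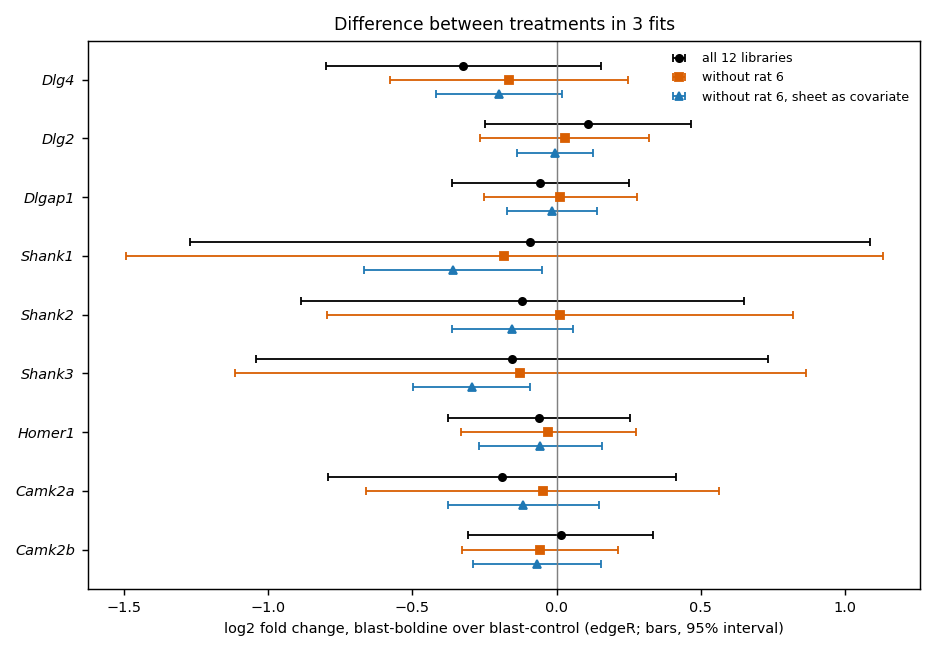
Log2 fold change of each gene in blast-boldine over blast-control rats by edgeR, with 95% intervals, for all 12 libraries (black), without rat 6 (orange) and without rat 6 with the sheet as a covariate (blue). The blue interval excludes 0 for Shank1 (-0.67 to -0.05) and Shank3 (-0.50 to -0.09), and every other interval holds 0.

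With the sheet as a covariate, 670 of 12529 genes (5.35%) had an unadjusted p under 0.05 without rat 6, of which 443 were lower in blast-boldine rats (3.54%), and 2 of the 9 genes, Shank1 and Shank3, were among these. At an adjusted p under 0.05 the number was 0 genes, or 0 percent. With all 12 rats the same covariate gave 474 genes (3.85%) and 1 of the 9, Shank3. All 9 genes had a negative log2 fold change in the fit with the sheet and without rat 6. Their median was -0.11, against -0.01 over all genes tested. With rat 4 also left out, 3 of the 9 were positive (Dlgap1, Camk2a and Camk2b, at 0.05, 0.05 and 0.07) and the median was -0.05. In the fit with the sheet and without rat 6, marker genes were also counted by the sign of their fold change. Negative ones numbered 7 of 7 for astrocytes, 6 of 6 for oligodendrocytes, 6 of 6 for microglia and 6 of 8 for neurons. They numbered 4 of 7 for hippocampal subfields, 3 of 6 for interneurons, 1 of 5 for endothelium and 0 of 5 for choroid plexus. Each treatment held rats of both sheets. For the microglial, endothelial and hippocampal subfield lists the summed CPM lay apart between sheets, as given below. Overlap between treatments was therefore fixed in advance for those lists and says nothing about a difference within sheets. Over both sheets together, the summed CPM of each of the 8 lists overlapped between treatments. In blast-boldine rats and in the controls without rat 6 it was 4154 to 5925 and 4454 to 6360 for astrocyte markers, 2999 to 7218 and 3319 to 7330 for oligodendrocyte markers, 124 to 287 and 119 to 290 for microglial markers, and 7530 to 8476 and 6335 to 9175 for neuronal markers. Their part in the fold changes of the 9 genes was not tested. With any of the other 3 sheet divisions as a covariate and rat 6 left out, 0 of the 9 genes had an unadjusted p under 0.05 by edgeR. Over all genes tested the counts in these fits were also low, at 246, 219 and 186 of 12529 (1.96%, 1.75% and 1.48%).

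Between the sheets these genes differed much more than between treatments, and in a graded way. Without rat 6 and with treatment in the model, sheet 2 was higher than sheet 1 by 2.02 on the log2 scale for Shank1 (4.04-fold), 1.51 for Shank3 (2.86-fold) and 1.21 for Shank2 (2.31-fold). These differences stood at the 99.1, 96.6 and 93.4 percentiles of all genes tested. Camk2a followed at 0.84 (1.79-fold, percentile 86.0), and Dlg4 at 0.51, Dlg2 at 0.37, Dlgap1 at 0.29, Homer1 at 0.27 and Camk2b at 0.15. Dlg4, Dlg2, Shank1, Shank2, Shank3 and Camk2a, 6 of the 9 genes, had all 6 rats of sheet 1 under all 5 other rats of sheet 2, against 3091 of 12529 genes (24.7%).

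The difference between sheets rose with the exon length of genes over the whole table, from a median of -0.26 over the 1253 genes with the shortest exons to 0.30 over the 1253 with the longest. Shank1 and Shank3, with exons of 7577 and 5802 bases, are in this longest class and stood at the 98.8 and 95.2 percentiles within it. Camk2a, with 1510 bases of exons, the shortest of the 9 genes, stood at percentile 87.7 of the length class it belongs to, and Dlgap1, with 6634 bases, at percentile 48.8 of the longest class. Removing the trend with length from the fit without rat 6 with the sheet as a covariate left the log2 fold change of Shank3 at -0.28 and that of Shank1 at -0.35. Of the cell type lists, the summed CPM of 6 microglial markers was 264 to 290 in sheet 1 and 119 to 189 in sheet 2, and that of 5 endothelial markers 74.4 to 112 in sheet 1 and 200.1 to 273 in sheet 2 (rat 6 left out). That of the hippocampal subfield markers was 1108 to 1249 in sheet 1 and 1338 to 1676 in sheet 2, while that of 8 neuronal markers overlapped, at 6335 to 9032 and 7862 to 9175. What part these lists have in the difference between sheets was not tested.

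**Figure D3:**
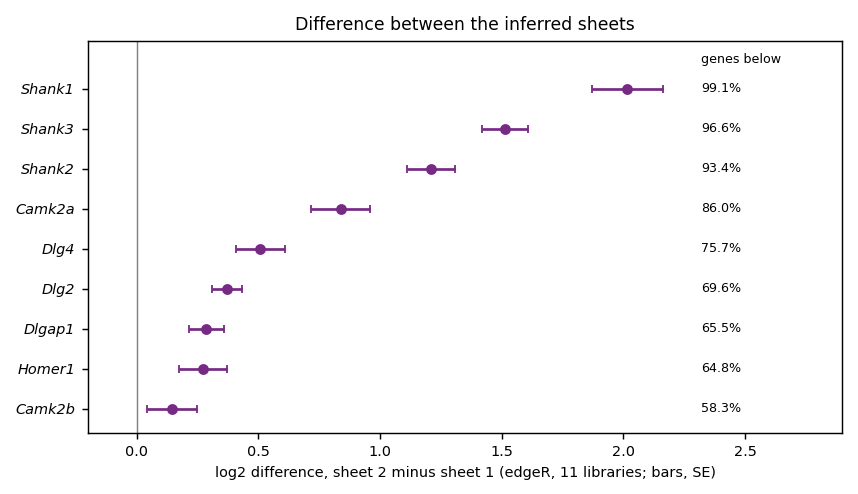
Log2 difference of each gene between the inferred sheets (sheet 2 minus sheet 1, edgeR with treatment in the model, 11 libraries; bars, standard error) and, at the right, the percentage of all genes tested with a lower difference. The 3 Shank genes stand highest, between 1.21 and 2.02, and Camk2b lowest at 0.15.

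Rat 4 was higher than the rest of its sheet for several of the genes. Against the median of the other 4 libraries of sheet 2, rat 6 left out, its level was 1.76-fold for Shank1, 1.54-fold for Dlg4, 1.47-fold for Camk2a, 1.44-fold for Shank3 and 1.36-fold for Camk2b. Among all genes tested these ratios stood at percentiles 95.5, 90.9, 88.8, 87.7 and 83.6. The summed neuronal (9175 CPM) and hippocampal subfield (1676 CPM) markers of rat 4 were also the highest of the 11 rats. Its level was 1.0-fold for Dlg2 and 0.801-fold for Homer1. Without the sheet in the model, leaving out rat 4 moved the log2 fold change of Shank1 with all other rats from -0.09 to 0.48. That of Shank3 moved from -0.16 to 0.16. The controls were then rats 1, 7 and 9 of sheet 1 and rats 5 and 6 of sheet 2. With the sheet in the model and rats 4 and 6 left out, the log2 fold change was -0.17 for Shank1 and -0.20 for Shank3.

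Per kilobase of exon, Camk2a was the most abundant of the 9 genes, at 981 ± 344 CPM per kilobase (SD, n = 11 rats, rat 6 left out), and its lowest library, at 623, was above the highest of every other gene. Camk2b (289 ± 39.3) and Dlg4 (219 ± 53.6) came next. Their ranges over rats overlapped, but within each of the 11 libraries Camk2b was higher than Dlg4. Dlg2 (123 ± 16.7), Dlgap1 (92.1 ± 11.2), Homer1 (53.1 ± 7.98) and Shank2 (32.3 ± 13.8) followed. The places of Shank1 and Shank3 turned with the sheet. Shank1 had 43.1 ± 7.19 CPM per kilobase in sheet 1, where it overlapped with Homer1 and lay under Dlgap1 in every library, and 169 ± 52.0 in sheet 2, where it overlapped with Dlg2 and lay over Dlgap1. Its highest library, at 260.3, lay within the ranges of Dlg4 and Camk2b, but in that library, of rat 4, it was under both Dlg4 (362) and Camk2b (392). Shank3 had 29.9 ± 4.02 in sheet 1, under Homer1 (48.8 ± 3.68), and 82.8 ± 15.2 in sheet 2, over Homer1 (58.2 ± 9.08). Exon length here sums all exons annotated for a gene, such as 61 exon blocks and 4107 bases for Camk2b, so isoforms that use few of them have their level per kilobase understated.

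The ratio of the 2 kinase subunits lay apart by sheet and overlapped between treatments. The ratio of Camk2a to Camk2b in CPM per kilobase was 2.69, 2.82 and 2.57 in blast-control rats 1, 7 and 9 and 2.89, 2.71 and 2.14 in blast-boldine rats 20, 32 and 35, all in sheet 1. In sheet 2 it was 4.50 and 3.96 in blast-control rats 4 and 5 and 4.29, 4.20 and 4.11 in blast-boldine rats 12, 17 and 19. Rat 6, with 158 counts of Camk2a and 53 of Camk2b, had 8.11. The difference between treatments in the log2 ratio was -0.20 with all 12 rats (exact two-sided permutation p = 0.556). Without rat 6 it was 0.02 (exact permutation p = 0.896), and -0.04 when compared sheet by sheet (exact permutation p = 0.68).

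**Figure D4:**
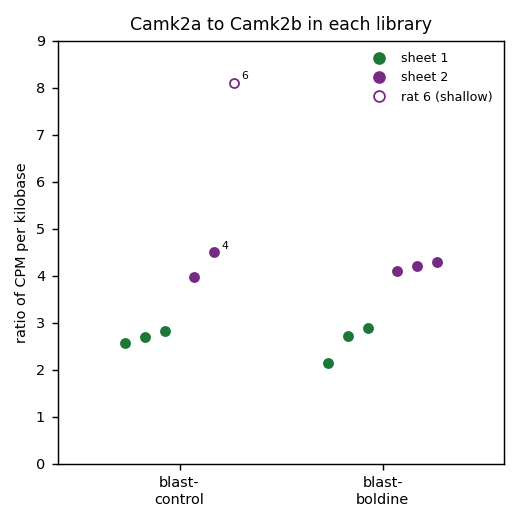
Ratio of Camk2a to Camk2b, in CPM per kilobase of exon, in each library by treatment, with sheet 1 in green, sheet 2 in purple and rat 6 as an open circle. Sheet 1 lies between 2.14 and 2.89 and sheet 2 between 3.96 and 4.50 in both treatments, with rat 6 at 8.11.

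The wider set held 47 genes in 4 lists, of which 44 were in the table and tested: 14 other scaffolds, 15 genes of the CaMK family and its regulators, 6 GTPase regulators and 9 genes of palmitoylation and turnover. With all 12 rats 0 of the 44 had an unadjusted p under 0.05, and the median log2 fold change was -0.08 (31 negative, 13 positive). Without rat 6 the count was again 0, but the lean to negative values was gone, with 21 negative and 23 positive and a median of 0.00. With the sheet in the model and rat 6 left out, 6 of the 44 (13.6%) had an unadjusted p under 0.05, all with a negative fold change, and the edgeR adjusted p was 0.898 for each. The background for that count is the 5.35% of all genes tested with such a p in either direction, given above. Genes lower in blast-boldine rats alone made up 3.54%.

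The genes depended on the setting. With rat 4 also left out 6 genes (13.6%) had an unadjusted p under 0.05 again, against 6.51% of all genes tested. Of these 6, 2 were shared, Lzts1 and Camk1, and 1 had a positive fold change. With the length trend removed instead, 2 genes (4.55%), Lzts1 and Camk2n2, had such a p, against 5.21% of all genes tested. The 6 genes of the fit with the sheet and without rat 6 were spread over the 4 lists. Among scaffolds, Lzts1 had a log2 fold change of -0.34 (standard error 0.10), at 72.1 to 127.7 CPM in blast-boldine rats and 105 to 181 CPM in blast-control rats without rat 6. Dlgap4, a relative of Dlgap1, was at -0.17 (standard error 0.08). Among CaMK genes, Camk2n2, an inhibitor of CaMKII, was at -0.33 (standard error 0.11), from a level of 7.51 to 16.3 CPM in blast-boldine rats and 7.96 to 25.5 CPM in blast-control rats, and Camk1, another calmodulin-dependent kinase, at -0.17 (standard error 0.08). Iqsec2, an exchange factor for Arf GTPases, was at -0.24 (standard error 0.11), and Zdhhc8, a palmitoyltransferase, at -0.25 (standard error 0.11). Camk2n2, Camk1 and Zdhhc8 had 0 counts in rat 6, where 3 counts equal 47.5 CPM.

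For each gene the most alike genes were sought among all genes by Pearson r of log2 CPM over the 11 libraries other than rat 6, after subtracting the mean of each treatment in each sheet, and they are given as a description. For Dlg4 they were Shisa7, an AMPA receptor-associated protein (r = 0.993), and Gpr108 (r = 0.993), and for Camk2a Sez6l (r = 0.982) and Ctbp1 (r = 0.974). For Shank1 they were Iqsec3 (r = 0.980) and Prpf8 (r = 0.973), for Shank3 Trim14 (r = 0.976) and Ptpn23 (r = 0.974), and for Shank2 Hs6st1 (r = 0.966) and Emid1 (r = 0.948). For Camk2b they were Spsb1 (r = 0.983) and Pik3r2 (r = 0.979), for Dlgap1 Glul (r = 0.985) and Cyfip2 (r = 0.985), for Dlg2 Sparcl1 (r = 0.920) and MGC93861 (r = 0.915), and for Homer1 Rnaseh2b (r = 0.975) and Tdp2 (r = 0.975). Trim14 and MGC93861 had low levels, with means of 0.919 and 0.811 CPM over the 11 libraries, so their values carry more counting error. The libraries of rats 4 and 5 share a cell of 2 rats, so their deviations are equal and opposite. Without both, r lay between 0.879 and 0.973 over the remaining 9 libraries. The genes were picked as the highest of all genes over libraries that include these 9. A high r there is thus in part fixed by the choice and is no independent check.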

How the data were processed

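Stranded, ribosome-depleted RNA libraries were sequenced by the authors, who removed duplicate reads with HTStream, aligned to rn7 (mRatBN7.2) with STAR 2.7.11b and counted reads on exons per gene with featureCounts of Subread 2.0.1. The deposited counts were used as they are, without normalization, for 17494 genes. Gene length is the summed exon length the file gives.

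Genes were tested with edgeR 4.0.16 (R 4.3.3) by the quasi-likelihood test, TMM, the filter filterByExpr at a minimum of 10 counts, treatment as the only term and Benjamini-Hochberg adjustment over all genes, two-sided. CPM are scaled with TMM, log2 CPM adds a prior count of 2, and permutation tests were exact. They were run on the 9 genes in 7 settings (63 tests) and on the subunit ratio in the same 7, unadjusted. DESeq2 1.42.0, limma-voom (limma 3.58.1), other size factors, no filter, a length correction, the sheet, and leaving out rats were alternatives. The rat is the replicate. Totals set the counting error, and counting intervals cover that error only, not the spread between rats. The genes and lists were chosen with earlier results of these data known. Genes named outside the 9 are those of the wider lists with an unadjusted p under 0.05 with the sheet and without rat 6, and the 2 most alike genes of each. Reads were not realigned.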

Additional observations from a re-analysis of the deposited data

Results flagged for a closer look

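The Dlg4 level of blast-control rat 4, 1110.3 CPM, stood far above the other 4 blast-control rats once rat 6 was left out: its gap to the nearest was 0.736 of the whole range, over the 95% limit for 5 samples. These 5 rats came from both sheets, rats 1, 7 and 9 from sheet 1 and rats 4 and 5 from sheet 2. Dlg4 was higher in sheet 2, by 0.51 on the log2 scale, which the limit does not take into account. Of 27 such checks on the 9 genes this was the only one to pass its limit, and chance passes about 1 in 20.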

How the results depend on the processing

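None of the 9 genes was called at an adjusted p under 0.05 in any alternative. The calls at an unadjusted p depended on the sheet: the count of the 9 genes rose from 0 to 1 with the sheet as a covariate, to 2 with rat 6 also left out, to 2 with the length trend also removed, to 2 in sheet 1 alone and to 1 with rats 4 and 6 left out. The count of the wider lists went from 0 to 3, 6, 2, 1 and 6 under the same settings, not always of the same genes, and to 1 in sheet 2 alone and 1 in each of the first 2 other sheet divisions. Over all genes the count was 132, and 474, 670, 653, 421 and 820 under these settings, 692 in sheet 2 alone, 246 and 219 with the first 2 other divisions, 254 without the filter and 85 by DESeq2. Leaving out each rat in turn gave counts of 85 to 214. The cause was not tested. The other sheet divisions, the single sheets, and the sheet together with the length trend or without rats 4 and 6 were chosen after seeing the data.

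Fold changes near 0 changed sign. Camk2b went to -0.012 by DESeq2 and by upper quartile factors, to -0.0039 with the sheet, -0.067 with rat 6 also left out and -0.054 with the length trend also removed, to -0.16 in sheet 2 alone, and to -0.040, -0.031 and -0.059 with the 3 other divisions. Dlg2 went to -0.0057 with the sheet and rat 6 left out, -0.0012 with rats 4 and 6 left out, -0.034 in sheet 2 alone and -0.0023 with the first other division. Dlgap1 went to 0.0055 by limma-voom, to 0.047 with rats 4 and 6 left out, and to 0.0013, 0.035 and 0.013 with the other divisions. Camk2a went to 0.051 with rats 4 and 6 left out. Leaving out each rat in turn gave ranges of -0.29 to 0.0043 for Camk2a, -0.056 to 0.14 for Camk2b, 0.029 to 0.20 for Dlg2, -0.40 to -0.17 for Dlg4, -0.089 to 0.013 for Dlgap1, -0.11 to 0.065 for Homer1, -0.29 to 0.48 for Shank1, -0.27 to 0.047 for Shank2 and -0.33 to 0.16 for Shank3. Exact permutation p was 0.877 for Dlgap1 and 0.838 for Camk2b without rat 6, and within sheets as well 0.875 for Dlg2, 0.715 for Camk2b and 0.025 for Shank3. No paired analysis was possible because the treatments share no rat numbers.

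With 12 rats and 1 library of 74008 counts, changes below the intervals given were not detectable, and no value separates isoforms or cell types.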
